A study of Homo sapiens with 12 samples.

Results

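Hepatocytes secrete most plasma proteins, and the set examined here holds 49 genes of hepatocyte identity: the plasma proteins themselves, the transcription factors that maintain them, surface proteins and urea cycle enzymes. The members were taken by gene name from the tables of an RNA-Seq experiment, and 24 of the 49 were listed among the 15601 genes of the table over all 12 libraries. The cells were SNU449, a mesenchymal-like human hepatocellular carcinoma (HCC) line, and its derivative SNU449-Axl-KO, which lacks the receptor tyrosine kinase Axl after CRISPR/Cas9 editing. Each was sequenced as naive control cells (SNU449-ctrl and SNU449-Axl-KO-ctrl) and as cells resistant to the kinase inhibitor regorafenib (SNU449-Rego and SNU449-Axl-KO-Rego). For resistance, Rego was started at 50% of the half-maximal inhibitory concentration (IC50) and raised stepwise up to 2 times the IC50. The 4 groups have 3 libraries each, which are technical triplicates of 1 cell population. The p-values below therefore measure the spread between libraries only, and a difference between groups cannot be told apart from a difference between the cultured populations.

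In the liver, a network of transcription factors that includes HNF1, HNF4, FOXA, C/EBP and ONECUT proteins activates the genes of plasma proteins. Several of these genes are also acute phase genes, which hepatocytes induce upon inflammatory cytokines. Dedifferentiated, mesenchymal-like HCC cells have typically lost much of this program. The comparisons ask how the remaining expression differed with Rego resistance and with the loss of Axl.

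The authors corrected variance-stabilized levels for the preparation of the libraries and deposited them as powers of 2, rounded to whole numbers, which are at least 12 in this table and are called library values here. They are not read counts, and differences of weakly expressed genes are compressed on this scale. A level below is the log2 of the library value plus 1, and a log2 fold change is a difference of mean levels. As a second measure, the authors' mean normalized count of a gene over the libraries of a table tells how many reads stood behind it. The libraries were made from the 3′ ends of mRNAs, so that counts do not grow with the length of a transcript. Libraries with the same replicate number are tied to each other by the removal of the preparation effect. A weakly expressed gene that is low in 1 library can therefore appear raised in the libraries of the other groups with that number. The depth per library is unknown. AXL had library values of 727, 941 and 715 in SNU449-ctrl, 1237, 815 and 1271 in SNU449-Rego, 35, 53 and 33 in SNU449-Axl-KO-ctrl and 50, 38 and 52 in SNU449-Axl-KO-Rego, with all libraries labelled Axl-KO below all others. The edited position is not given in the sources used here, so that whether the 3′ reads can check the edit is not known.

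Of the 49 genes, 25 were listed in none of the 8 tables. These were albumin (ALB), the apolipoproteins APOA2, APOB and APOC3, the coagulation proteins F2, F5, F7, F10 and PROC, and the serpins SERPINA1, SERPINA3, SERPINC1 and SERPIND1. Among the transport and acute phase proteins TTR, TF, AHSG, HP, ORM1 and VTN were not listed, and among the transcription factors HNF4A, FOXA3, NR1H4 and PROX1. The asialoglycoprotein receptor subunit ASGR2 and the urea cycle enzyme ARG1 were not listed either. The authors removed genes with few reads, and a gene not listed here has no value to compare. The 24 listed members had a median of 15.1 mean normalized counts, compared to 57.1 over all genes of the table. Of these members, 14 had at least 10 counts, whereas 74.7% of all genes did. The counts of all 24 members summed to 1260. In comparison, 13 of 15 mesenchymal markers were listed and summed to 23190 counts, of which 18945 came from vimentin (VIM) alone. Of 10 cholangiocyte and progenitor markers, 7 were listed and summed to 4970 counts. Of 10 epithelial markers, 3 (KRT18, KRT8 and ESRP2) were listed and summed to 1364 counts, while CDH1, EPCAM and KRT19 were not listed.

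The most abundant member was FOXA2, a forkhead factor of endoderm and liver, with 428 counts. It was followed by AMBP, the precursor of α1-microglobulin and bikunin, with 210 counts, the copper-carrying ferroxidase CP (ceruloplasmin) with 146 and the fibrinogen β chain FGB with 104. APOM, SERPINF2, ONECUT1, FGA, AFP, APOH, HNF4G, HPX, ASGR1 and APOA1 lay below 10 counts, down to 1.14 for APOA1. Thus, the regulator FOXA2 and a few secreted proteins were expressed in the absence of listed HNF4A and albumin.

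**Figure D1:**
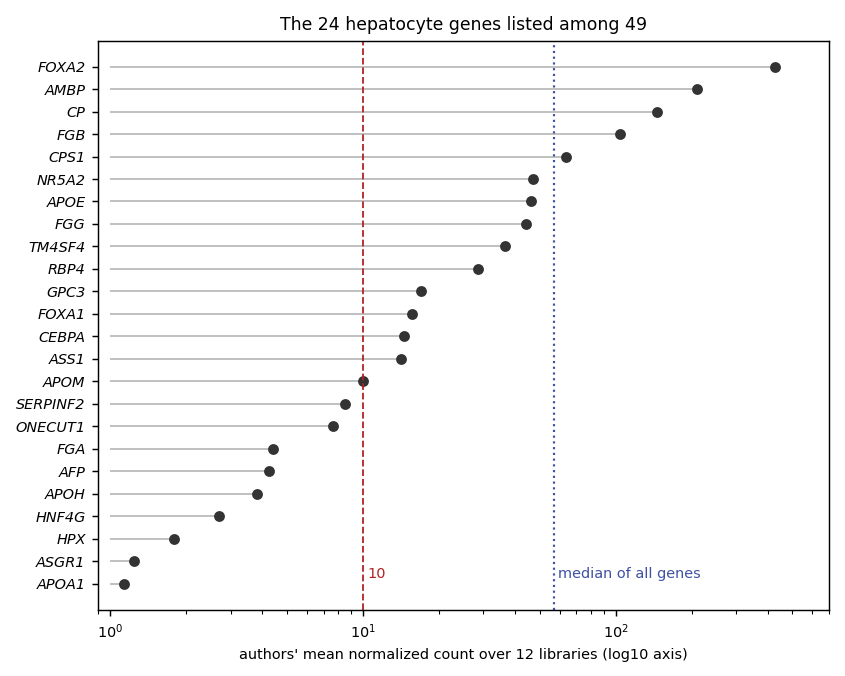
Authors' mean normalized count over 12 libraries on a log10 axis for the 24 listed hepatocyte genes, 1 point per gene. The dashed line marks 10 counts and the dotted line the median of all genes, 57.1; FOXA2, AMBP, CP, FGB and CPS1 lie above that median.

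The genes of the 3 chains of fibrinogen, the precursor of fibrin in clots, lie next to each other on chromosome 4 of GRCh38. FGB extends from 154563011 to 154572807 on the plus strand, FGA from 154583128 to 154590745 and FGG from 154604134 to 154612967 on the minus strand. All 3 genes had their highest library values in SNU449-Axl-KO-Rego, while between the control cells only FGG was called. The 250 bases upstream of their RefSeq starts (build GRCh38.p14) are shown, on the strand of each gene. Capitals mark matches, on either strand, to an HNF1 half-site (GTTAAT), a C/EBP site (TTGCNNAA), the core of an interleukin-6 response element (CTGGGAA) or a forkhead site (TGTTTNC). No match overlapped another in these windows. FGB is at chr4:154562761-154563010, FGA at chr4:154590743-154590992 and FGG at chr4:154612657-154612906.
FGB: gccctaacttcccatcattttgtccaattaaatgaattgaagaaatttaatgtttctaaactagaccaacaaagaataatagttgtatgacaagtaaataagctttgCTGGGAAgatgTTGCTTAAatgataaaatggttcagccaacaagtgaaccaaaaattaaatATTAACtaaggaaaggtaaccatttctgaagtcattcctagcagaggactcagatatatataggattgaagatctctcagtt
FGA: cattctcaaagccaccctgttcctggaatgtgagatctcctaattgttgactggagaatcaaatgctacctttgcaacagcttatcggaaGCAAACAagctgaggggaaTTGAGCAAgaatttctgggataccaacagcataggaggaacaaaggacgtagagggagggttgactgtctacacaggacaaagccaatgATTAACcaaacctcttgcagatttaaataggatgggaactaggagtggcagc
FGG: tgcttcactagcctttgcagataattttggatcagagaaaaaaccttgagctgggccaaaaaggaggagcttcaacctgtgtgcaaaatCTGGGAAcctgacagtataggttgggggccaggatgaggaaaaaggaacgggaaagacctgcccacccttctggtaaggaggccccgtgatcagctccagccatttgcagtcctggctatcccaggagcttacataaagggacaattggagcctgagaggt

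The window of FGB held the HNF1 half-site 82 to 77 bases, the C/EBP site 132 to 125 bases and the interleukin-6 element 143 to 137 bases before the start. In FGA, the HNF1 half-site was 52 to 47 bases, the C/EBP site 141 to 134 bases and a forkhead site 160 to 154 bases before the start. FGG held only the interleukin-6 element, 161 to 155 bases before the start. Among 35116 RefSeq windows of the same length, 6.23% contain the HNF1 half-site, 9.05% the C/EBP site, 9.15% the interleukin-6 element and 15.5% the forkhead site. The table has windows for 17 of the 24 listed members and a second, earlier window for FGB. The RefSeq start of FGG lies 311 bases inside the gene as the files give it. A match of letters is a description and not a bound site.

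FGB had library values of 44, 16 and 24 in SNU449-ctrl and of 41, 22 and 24 in SNU449-Rego. In SNU449-Axl-KO-ctrl they were 36, 63 and 72, and in SNU449-Axl-KO-Rego 189, 547 and 294. All SNU449-Axl-KO-Rego libraries thus lay above all others. In RNA from whole cultures, more cells with FGB and more FGB RNA per cell cannot be told apart. The mean level was 5.80 ± 0.520 (SD, n = 3) in SNU449-Axl-KO-ctrl and 8.29 ± 0.768 (SD, n = 3) in SNU449-Axl-KO-Rego. With Rego resistance in the Axl-deficient background FGB rose by 2.49 on the log2 scale (standard error 0.382, adjusted p = 0.000805, limma with Benjamini-Hochberg adjustment), a 5.62-fold higher library value. In SNU449 the corresponding value was 0.11 (standard error 0.382, adjusted p = 0.911, same test). Over the 6 libraries of SNU449, the authors' mean normalized count of FGB was 2.89, and over the 6 libraries of SNU449-Axl-KO it was 222.

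FGG showed 31, 14 and 22 in SNU449-ctrl, 31, 22 and 22 in SNU449-Rego, 42, 54 and 61 in SNU449-Axl-KO-ctrl and 91, 214 and 121 in SNU449-Axl-KO-Rego. Here both Axl-deficient groups were higher than both SNU449 groups without overlap, and the resistant one was highest. The log2 fold change with Rego in SNU449-Axl-KO was 1.35 (standard error 0.300, adjusted p = 0.0147, limma with Benjamini-Hochberg adjustment). FGG was also higher by 1.24 in SNU449-Axl-KO-ctrl than in SNU449-ctrl (adjusted p = 0.0150, same test). Both calls depended on single libraries: without replicate 2 of SNU449-Axl-KO-Rego the rise with Rego was 0.90 (adjusted p = 0.156, limma), and without replicate 2 of SNU449-ctrl the difference between the control cells was 0.86 (adjusted p = 0.128). The table that compares SNU449-ctrl with SNU449-Rego does not list FGG.

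FGA stayed close to the lower end of the scale, with 25, 17 and 23 in SNU449-ctrl, 25, 24 and 23 in SNU449-Rego, 25, 26 and 23 in SNU449-Axl-KO-ctrl and 34, 48 and 39 in SNU449-Axl-KO-Rego. Only the last group stood apart, by 0.68 against SNU449-Axl-KO-ctrl (adjusted p = 0.0487, limma with Benjamini-Hochberg adjustment). This call was lost in 11 of 20 alternative settings. The tables of pairs list FGA only where SNU449-Axl-KO-Rego takes part, which are 3 of 6.

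Solving the authors' means of the 6 tables of pairs for the 4 groups by least squares gave approximate mean normalized counts per group, which carry no SD. Solved counts cannot fall below 0, so that a 0 is a bound of the fit and not a measured absence. For FGB these counts were 1.14 in SNU449-ctrl, 0 in SNU449-Rego, 41.0 in SNU449-Axl-KO-ctrl and 390 in SNU449-Axl-KO-Rego. The misfit to the authors' means of FGB was up to 7.07 counts and, as a share of a mean, up to 80.2%. FGG had 0, 0, 32.4 and 151 counts in the same order, and FGA 0, 0.32, 2.49 and 15.2. On the count scale, all 3 chains were thus near 0 in SNU449 cells and had their highest value in SNU449-Axl-KO-Rego. Between the control cells only FGG passed the test, while FGB (1.06) and FGA (0.20) did not. TMEM131L and PLRG1, the 2 genes within 1 Mb of FGB with at least 10 counts that are not members, had log2 fold changes of 0.37 to 0.52 with Rego in SNU449-Axl-KO, neither of them called. By the same definition, no gene of 30 near SERPINF2 was called, and 1 gene each was called higher near AMBP (COL27A1 of 16 genes, 1.05), RBP4 (LGI1 of 13, 1.59) and GPC3 (GPC4 of 7, 1.87). These 3 were named after their values were seen.

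AMBP (chromosome 9, 114060127 to 114078328, minus strand) had library values of 149, 80 and 143 in SNU449-ctrl, 110, 186 and 171 in SNU449-Rego, 146, 102 and 135 in SNU449-Axl-KO-ctrl and 395, 620 and 285 in SNU449-Axl-KO-Rego. The first 3 groups overlapped, while each SNU449-Axl-KO-Rego library exceeded all others. The rise with Rego in SNU449-Axl-KO was 1.70 on the log2 scale (standard error 0.295, adjusted p = 0.0026, limma with Benjamini-Hochberg adjustment). The solved counts were 94.4, 124 and 121 in the first 3 groups and 513 in SNU449-Axl-KO-Rego.

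RBP4 (chromosome 10, 93591687 to 93601744, minus strand), which carries retinol in plasma, had values of 25, 18 and 22 in SNU449-ctrl and 35, 42 and 31 in SNU449-Rego. In SNU449-Axl-KO-ctrl they were 31, 24 and 22, and in SNU449-Axl-KO-Rego 83, 125 and 156. RBP4 rose by 2.17 with Rego in SNU449-Axl-KO (standard error 0.234, adjusted p = 3.23e-05, limma with Benjamini-Hochberg adjustment). In SNU449 the resistant libraries also lay above the control ones, but with 0.71 the change missed the threshold (adjusted p = 0.0739, same test). The solved counts were 1.75, 5.50, 5.74 and 106, with a misfit of up to 19.3% of a mean.

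SERPINF2, the plasmin inhibitor α2-antiplasmin, had values of 27, 18 and 26 in SNU449-ctrl, 32, 51 and 36 in SNU449-Rego, 27, 18 and 20 in SNU449-Axl-KO-ctrl and 38, 52 and 46 in SNU449-Axl-KO-Rego. In both backgrounds the resistant libraries lay above the control libraries without overlap. SERPINF2 was called in SNU449-Axl-KO with 1.04 (standard error 0.226, adjusted p = 0.0127, limma with Benjamini-Hochberg adjustment) and missed the threshold in SNU449 with 0.71 (adjusted p = 0.0615, same test). The difference between these effects was -0.33 and did not pass the test (adjusted p = 0.645, limma interaction term). The call in SNU449-Axl-KO was lost without replicate 2 or 3 of either Axl-deficient group, with adjusted p-values of up to 0.120 in limma.

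GPC3 (chromosome X, 133535745 to 133987100, minus strand) encodes glypican-3, an oncofetal heparan sulfate proteoglycan of the surface that many HCCs express. Its values were 56, 37 and 25 in SNU449-ctrl, 27, 32 and 33 in SNU449-Rego, 19, 24 and 25 in SNU449-Axl-KO-ctrl and 66, 67 and 92 in SNU449-Axl-KO-Rego. GPC3 rose by 1.68 with Rego in SNU449-Axl-KO (standard error 0.247, adjusted p = 0.000532, limma with Benjamini-Hochberg adjustment), while in SNU449 the value was -0.28 (adjusted p = 0.566, same test). The solved counts, which carry no SD, were 16.0, 1.58, 2.00 and 50.2. By library values SNU449-ctrl overlapped with SNU449-Rego, and only SNU449-Axl-KO-Rego stood above all other groups.

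**Figure D2:**
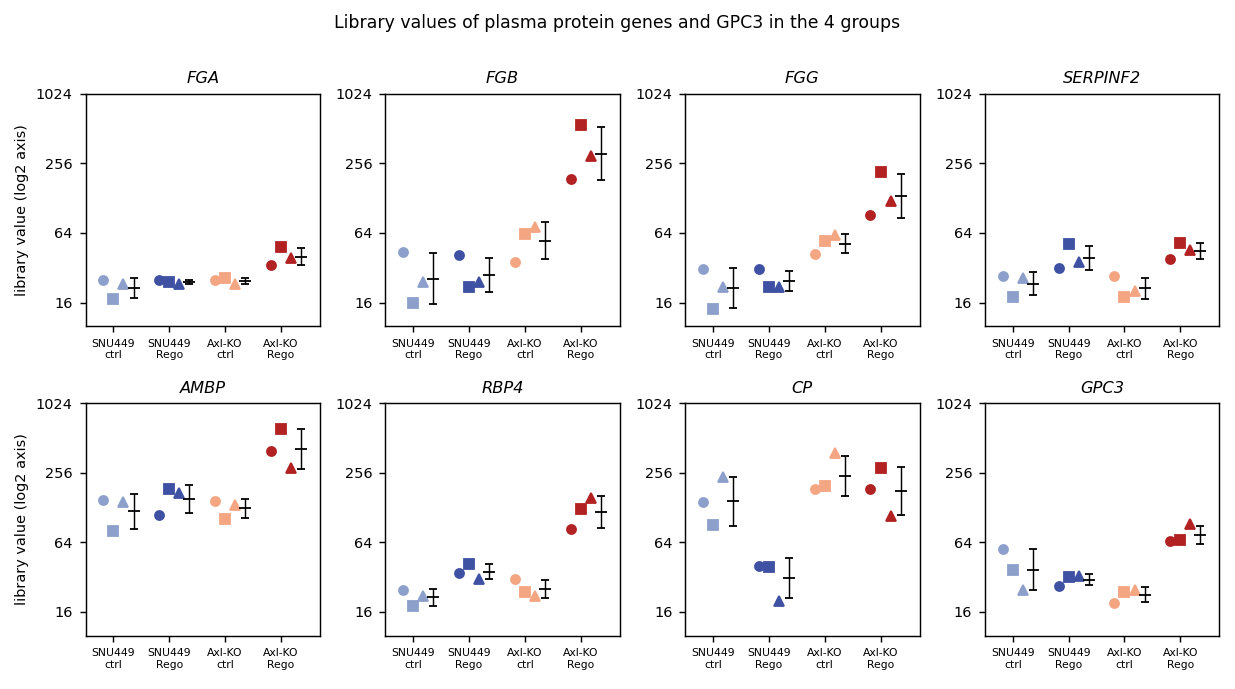
Library values (log2 axis) of 8 members in the 4 groups, with circles, squares and triangles for replicates 1, 2 and 3 and with the mean ± SD of the log2 values over 3 libraries in black. FGA, FGB, FGG, AMBP, RBP4 and GPC3 are highest in SNU449-Axl-KO-Rego, where FGB reaches 547, and CP is lowest in SNU449-Rego, down to 20.

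Over the 24 listed members, 7 were called with Rego in SNU449-Axl-KO, all of them higher in resistant cells, namely FGA, FGB, FGG, SERPINF2, AMBP, RBP4 and GPC3. Over all genes tested, 4.35% were called in this comparison. The median log2 fold change was 0.19 over the members and 0.01 over all genes. In SNU449, CP and TM4SF4 were called of the 24, both lower in resistant cells. This share of 8.33% is close to the 7.81% of all genes. Here the median was 0.10 over the members. Members reach the table through any group in which they have reads, and some of them have reads in 1 or 2 groups only, so that these counts describe the listed members and are no evidence about the 49.

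Single markers of other liver cells were called in the same comparison. Of the cholangiocyte and progenitor markers 7 of 10 were listed, and the sum of their library values was 6998 to 8611 in SNU449-Axl-KO-Rego compared to 2501 to 5387 over the libraries of the other groups. SPP1 (osteopontin) rose by 2.82 with Rego in SNU449-Axl-KO and was the only one called of the 7, while KRT19, EPCAM and CFTR were not listed. Without SPP1 the sum was 3886 to 4256 in SNU449-Axl-KO-Rego, within the range of 1634 to 4812 over the other groups. The sum of the 13 listed mesenchymal markers was 18956 to 22053 in SNU449-Axl-KO-Rego and 20768 to 29236 in SNU449-Axl-KO-ctrl, most of it from vimentin (VIM). Without VIM it was 3240 to 6693 and 2643 to 4930, respectively. Of the mesenchymal markers, fibronectin (FN1), which hepatocytes secrete as well, rose by 2.47, and COL1A1 and SNAI2 fell by 2.79 and 0.83, respectively. The 3 listed epithelial markers summed to 1559 to 2171 in SNU449-Axl-KO-Rego and 1170 to 1624 in SNU449-Axl-KO-ctrl, and none was called. Their part in the results of the plasma protein genes was not tested.

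CP (chromosome 3, 149162410 to 149221829, minus strand) followed another pattern. Its library values were 143, 90 and 238 in SNU449-ctrl, 40, 39 and 20 in SNU449-Rego, 184, 196 and 382 in SNU449-Axl-KO-ctrl and 185, 282 and 108 in SNU449-Axl-KO-Rego. SNU449-Rego was thus below each of the other groups. CP fell by 2.17 with Rego in SNU449 (standard error 0.383, adjusted p = 0.00141, limma with Benjamini-Hochberg adjustment) and changed by -0.43 in SNU449-Axl-KO (adjusted p = 0.603, same test). The difference of these effects was -1.74 and missed the threshold (adjusted p = 0.0677, limma interaction term). The solved counts were 134, 0, 260 and 204, with a misfit of up to 6.52 counts.

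TM4SF4 is a tetraspanin-like membrane protein of liver and intestine and lies on the same chromosome from 149474697 to 149503394. The library values were 52, 65 and 252 in SNU449-ctrl, 33, 36 and 19 in SNU449-Rego, 49, 42 and 25 in SNU449-Axl-KO-ctrl and 38, 32 and 25 in SNU449-Axl-KO-Rego. SNU449-ctrl was highest, with replicate 3 far above the other libraries. TM4SF4 fell by 1.71 with Rego in SNU449 (standard error 0.423, adjusted p = 0.0165, limma with Benjamini-Hochberg adjustment). Without replicate 3 of SNU449-ctrl the fall was 0.78 (adjusted p = 0.0375, same test). The call was lost without replicate 3 of SNU449-Rego (adjusted p = 0.125), in the table of this pair (adjusted p = 0.0806) and with robust eBayes (adjusted p = 0.179). CP and TM4SF4 lie within 1 Mb of each other. Apart from these members, none of the 9 genes near CP or of the 10 near TM4SF4 (within 1 Mb, at least 10 counts) was called in this comparison. Of the cholangiocyte and progenitor markers KRT7 rose by 4.47 and SPP1 fell by 0.90 with Rego in SNU449, and of the mesenchymal markers FN1, ZEB2 and LUM fell by 2.24, 1.31 and 1.10, whose part was not tested.

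The comparison of SNU449-Axl-KO-Rego with SNU449-Rego shares the SNU449-Axl-KO-Rego libraries with the one above. It called 7 of the 24 members, all higher in the cells without Axl, against 4.37% of all genes. FGB was higher by 3.44 (standard error 0.382, adjusted p = 2.9e-05, limma with Benjamini-Hochberg adjustment), CP by 2.46 (standard error 0.383, adjusted p = 0.000841), FGG by 2.39 (standard error 0.300, adjusted p = 0.000106) and RBP4 by 1.69 (standard error 0.234, adjusted p = 0.000254). The calls of AMBP (1.43), GPC3 (1.25) and FGA (0.71) were smaller, with adjusted p-values of 0.0088, 0.00651 and 0.0376 in the same test, and each was lost in at least 1 fit with a library left out. In place of SERPINF2, which had reads in both resistant groups and a value of 0.20 here (adjusted p = 0.705, same test), CP joined the list. The median log2 fold change was 0.30 over the members and 0.01 over all genes. The limit on counts of listed members holds here too. FGA, APOH, SERPINF2 and HNF4G, for example, are listed in tables of pairs only where SNU449-Axl-KO-Rego takes part. Among the markers, SPP1 (2.63), FN1 (2.46) and KRT8 (1.58) were called higher and COL1A2 (-1.32) lower here.

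Between the control cells, 3 of the 24 members were called, FGG, ONECUT1 and AFP, all higher in SNU449-Axl-KO-ctrl, while 7.45% of all genes were called. Of the 2 genes near FGG (within 1 Mb, at least 10 counts), PLRG1 was called lower here (-1.29). FGB had a value of 1.06 and TM4SF4 one of -1.33 in this comparison, neither of which passed the test (adjusted p = 0.103 and 0.0639, limma with Benjamini-Hochberg adjustment). The median was 0.17 over the members and 0.0035 over all genes. Of the markers, KRT7 (3.71), COL1A1 (3.14) and KRT8 (0.79) were called higher and FN1 (-2.25) and SPP1 (-1.08) lower.

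**Figure D3:**
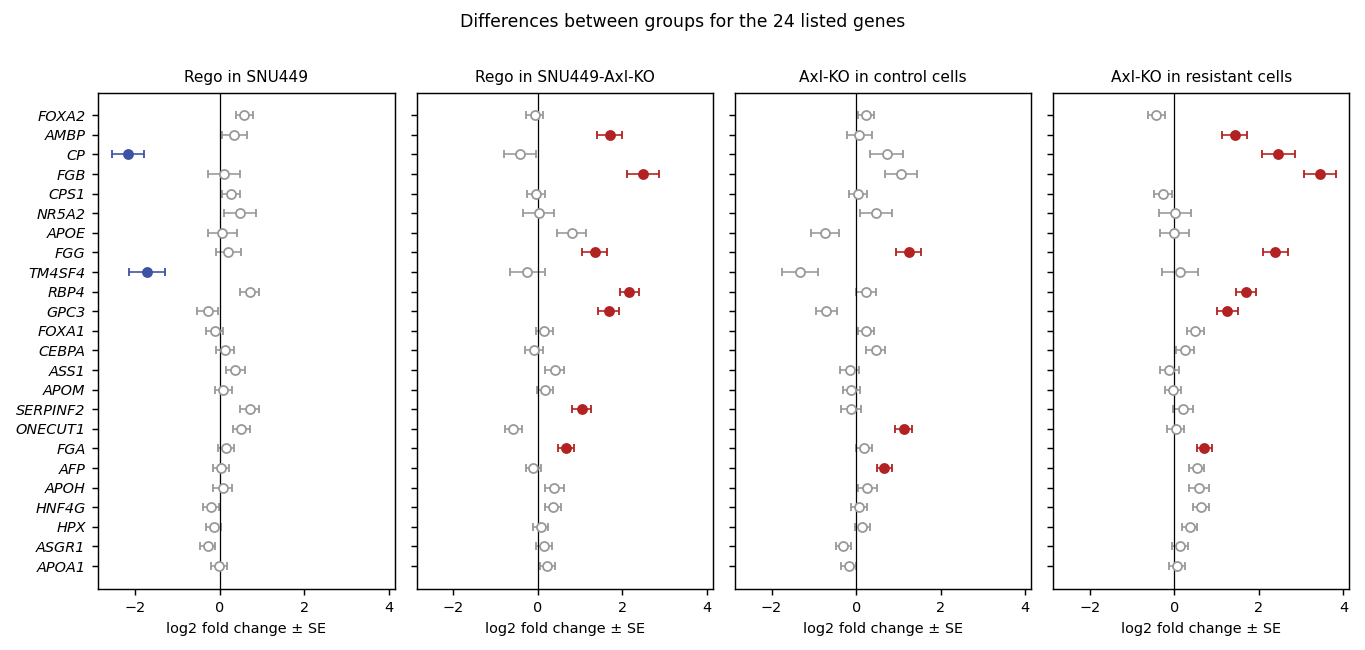
Log2 fold change ± standard error of the 24 listed members in the 4 comparisons of groups, from the limma fit over 12 libraries, with genes ordered by mean normalized count. Filled red points were called higher and filled blue points lower; 7 red points stand in each of the 2 comparisons that contain SNU449-Axl-KO-Rego.

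ONECUT1 (hepatocyte nuclear factor 6) is a homeodomain factor of early liver and biliary development. It had values of 21, 20 and 23 in SNU449-ctrl, 37, 34 and 23 in SNU449-Rego, 46, 45 and 52 in SNU449-Axl-KO-ctrl and 27, 32 and 36 in SNU449-Axl-KO-Rego. All SNU449-Axl-KO-ctrl libraries lay above all other libraries. The difference between the control cells was 1.12 (standard error 0.200, adjusted p = 0.00184, limma with Benjamini-Hochberg adjustment). Of the 10 genes near ONECUT1 (within 1 Mb, at least 10 counts), WDR72 was also called higher between the control cells (2.16). Whether the changes of WDR72 and ONECUT1 are linked was not tested. With Rego, ONECUT1 had values of 0.51 in SNU449 and -0.58 in SNU449-Axl-KO, neither of them called (adjusted p = 0.139 and 0.110, same test). The solved counts were 0, 4.50, 20.0 and 6.63.

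AFP, the fetal counterpart of albumin and a serum marker of HCC, had values of 24, 23 and 21 in SNU449-ctrl, 20, 23 and 27 in SNU449-Rego, 38, 33 and 39 in SNU449-Axl-KO-ctrl and 36, 37 and 29 in SNU449-Axl-KO-Rego. Both groups with Axl were at the lower end of the scale, and both groups without it were above. AFP was higher by 0.67 between the control cells (standard error 0.181, adjusted p = 0.0297, limma with Benjamini-Hochberg adjustment) and by 0.53 between the resistant cells, which did not pass (adjusted p = 0.114, same test). Leaving out any 1 of the 6 control libraries ended the call, with adjusted p-values of up to 0.113 over all settings. The solved counts were 0, 0, 9.89 and 7.43, which is few reads. Of the 9 genes near AFP (within 1 Mb, at least 10 counts), 4 were also called higher between the control cells and none lower. They were AREG, EREG, CXCL5 and CXCL1, with AREG highest (2.47). A higher level in SNU449-Axl-KO-ctrl was thus not particular to AFP in this region, and a link between these changes was not tested.

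The other transcription factors were not called in any comparison. FOXA2 had values of 399, 394 and 305 in SNU449-ctrl, 536, 480 and 633 in SNU449-Rego, 366, 485 and 443 in SNU449-Axl-KO-ctrl and 440, 377 and 403 in SNU449-Axl-KO-Rego. SNU449-Rego was the highest group without overlap with SNU449-ctrl, but its log2 fold change of 0.59 missed the threshold (adjusted p = 0.0747, limma with Benjamini-Hochberg adjustment). The related pioneer factor FOXA1 ranged from 28 to 41 in the SNU449 libraries and from 42 to 59 in the SNU449-Axl-KO libraries. Its difference was 0.23 between the control cells and 0.50 between the resistant cells (adjusted p = 0.556 and 0.180, same test). CEBPA, which maintains the mature hepatocyte, had 32, 34 and 39 in SNU449-ctrl, 32, 38 and 46 in SNU449-Rego, 56, 42 and 48 in SNU449-Axl-KO-ctrl and 51, 54 and 34 in SNU449-Axl-KO-Rego. The groups of CEBPA overlapped except between the control cells, where its difference was 0.46 (adjusted p = 0.225, same test). NR5A2 (liver receptor homolog-1), a nuclear receptor of bile acid and cholesterol genes, had 75, 46 and 42 in SNU449-ctrl, 90, 59 and 76 in SNU449-Rego, 36, 79 and 138 in SNU449-Axl-KO-ctrl and 88, 97 and 48 in SNU449-Axl-KO-Rego. All groups of NR5A2 overlapped, with the widest spread in SNU449-Axl-KO-ctrl. HNF4G had 2.69 mean normalized counts and library values from 19 to 39.

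**Figure D4:**
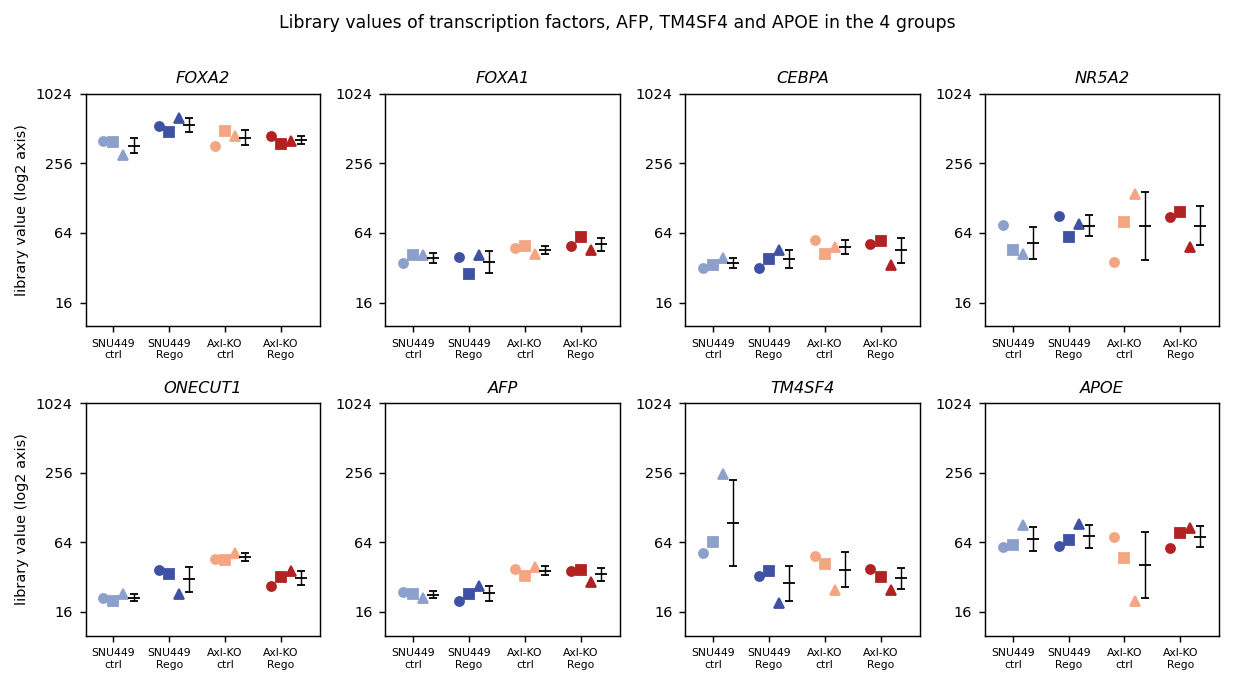
Library values (log2 axis) of transcription factors, AFP, TM4SF4 and APOE in the 4 groups, with circles, squares and triangles for replicates 1, 2 and 3 and with the mean ± SD of the log2 values over 3 libraries in black. ONECUT1 is highest in SNU449-Axl-KO-ctrl (45 to 52), and replicate 3 of TM4SF4 in SNU449-ctrl (252) stands above its group.

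No apolipoprotein was called in any of the 4 comparisons. APOE, a ligand of lipoprotein receptors, had 59, 61 and 91 in SNU449-ctrl, 60, 67 and 93 in SNU449-Rego, 72, 47 and 20 in SNU449-Axl-KO-ctrl and 57, 77 and 85 in SNU449-Axl-KO-Rego. The spread within SNU449-Axl-KO-ctrl was as large as the distance to the other groups, and its difference from SNU449-ctrl was -0.74 (standard error 0.338, adjusted p = 0.210, limma with Benjamini-Hochberg adjustment). APOM, APOH and APOA1 had library values of 30 to 46, 19 to 40 and 19 to 31, respectively. The heme-binding protein HPX and the asialoglycoprotein receptor subunit ASGR1 likewise kept between 19 and 31 and between 20 and 32.

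The urea cycle was represented by CPS1 and ASS1. CPS1, the mitochondrial entry enzyme of the cycle, had 87, 68 and 95 in SNU449-ctrl, 96, 110 and 94 in SNU449-Rego, 80, 77 and 101 in SNU449-Axl-KO-ctrl and 86, 100 and 65 in SNU449-Axl-KO-Rego. These values overlapped between all groups compared, and its log2 fold changes ran from -0.27 to 0.27 with a standard error of 0.214. ASS1, which joins citrulline and aspartate, had 42, 34 and 37 in SNU449-ctrl, 41, 50 and 56 in SNU449-Rego, 45, 29 and 29 in SNU449-Axl-KO-ctrl and 35, 56 and 45 in SNU449-Axl-KO-Rego. Its fold changes with Rego were 0.36 in SNU449 and 0.40 in SNU449-Axl-KO, neither of them called (adjusted p = 0.379 and 0.370, limma with Benjamini-Hochberg adjustment).

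An interaction term, the Rego effect in SNU449 minus that in SNU449-Axl-KO, tested whether the difference between resistant and control cells was unequal in the backgrounds with and without Axl. It was called for 4 of the 24 members, compared to 5.87% of all genes. This term also contains SNU449-Axl-KO-Rego, so that the limit on counts of listed members holds here as well. FGB, RBP4 and GPC3 had negative terms and ONECUT1 a positive one. Of the genes within 1 Mb with at least 10 counts, 1 each was called in the same direction near 3 of them. These were LGI1 near RBP4 (of 13 genes, -1.40), GPC4 near GPC3 (of 7, -1.41) and WDR72 near ONECUT1 (of 10, 2.08). Neither of the 2 genes near FGB was called. A link between these changes was not tested. For FGG and AMBP, which were called with Rego in SNU449-Axl-KO but not in SNU449, the terms were -1.14 and -1.36 and did not pass (adjusted p = 0.131 and 0.0650, limma with Benjamini-Hochberg adjustment). The term of FGB was no longer called without replicate 2 of SNU449-Axl-KO-Rego (adjusted p = 0.0537, limma) or with robust eBayes (adjusted p = 0.125). That of ONECUT1 was lost in 9 of 19 settings. The terms of RBP4 and GPC3 held in all settings tried, with adjusted p-values of up to 0.0474 and 0.0123, respectively, in limma. In SNU449, FGB and RBP4 lay near the lower end of the scale, where differences are compressed.

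**Figure D5:**
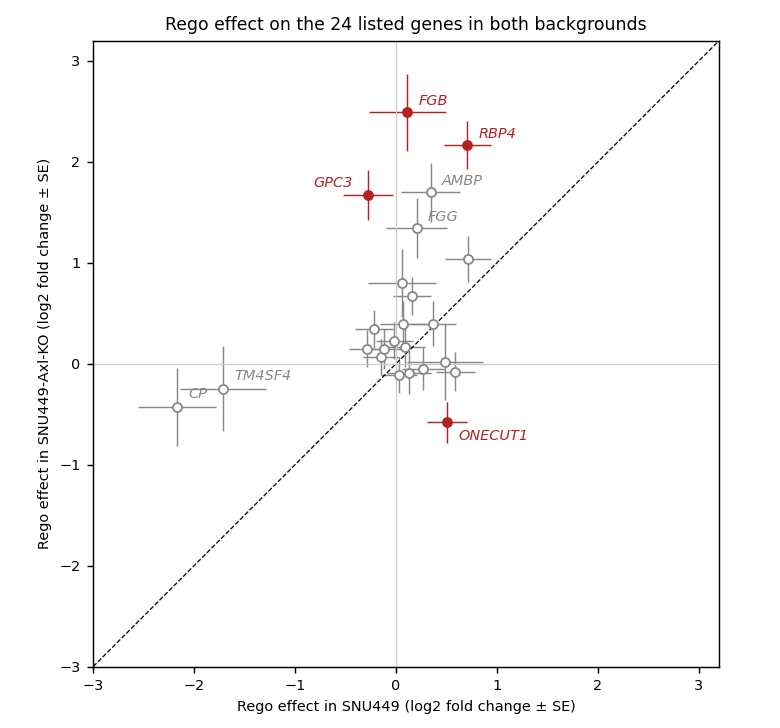
Rego effect (log2 fold change ± standard error) of the 24 listed members in SNU449 on the horizontal axis and in SNU449-Axl-KO on the vertical axis, with the line of equal effects dashed. The filled points FGB, RBP4, GPC3 and ONECUT1 passed the interaction test, and FGB lies at 0.11 and 2.49.

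Beyond the members, 34 of 103 further hepatocyte genes (complement, transporters, metabolic enzymes and regulators) were listed. With Rego in SNU449, 6 of them were called (17.6%, compared to 7.81% of all genes), 4 up and 2 down, and the largest change was that of the glucose transporter SLC2A2, which fell by 2.70, from 123, 134 and 242 in SNU449-ctrl to 26, 25 and 20 in SNU449-Rego. The complement protease C1S fell by 1.02 and the paraoxonase PON3 rose by 0.92. In SNU449-Axl-KO only complement C5 (1.21) and the transcription factor GATA4 (-1.07) were called, which is 5.88% compared to 4.35% of all genes and close to that share. Between the control cells, 4 were called (11.8%, compared to 7.45%), with SLC2A2 (-1.17), C1S (-0.93) and angiotensinogen AGT (0.75) in front. Between the resistant cells, 7 were called (20.6%, compared to 4.37%), 4 up and 3 down, led by the acute phase regulator CEBPD (1.56), the transporter SLCO1B3 (1.13) and PON3 (-1.12). The interaction was called for 6 (17.6%, compared to 5.87%), with the largest terms in SLC2A2 (-2.16), PON3 (1.68) and C1S (-1.51).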

How the data were processed

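QuantSeq 3′ mRNA libraries of 12 samples were trimmed with cutadapt 4.0 and aligned with STAR 2.5.3a by the authors (GRCh38, GENCODE annotation and spike-in sequences), who counted reads per gene, removed weakly expressed genes and ran DESeq2 with the preparation date. Their 8 tables (2 over 12 libraries, 6 of pairs) hold library values, which the authors deposited as rounded scores: powers of 2 of variance-stabilized levels corrected for the preparation of the libraries with limma, computed for each table on its own. The signal column was deposited by the authors as the mean of counts divided by size factors. Columns of the authors' own comparisons (fold changes, test statistics, p-values) were not used. Coordinates and identifiers are those of the files.

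The table comparing the backgrounds over 12 libraries was fitted with limma 3.58.1 in R 4.3.3 on log2(value + 1), with the 4 groups and the replicate number as a block, eBayes with trend, and Benjamini-Hochberg adjustment over all 15601 genes without spike-ins, and genes with an adjusted p under 0.05 were called. The block was used because that correction ties libraries that share a replicate number: the mean over the groups deviated by a median of 0.00126 between the numbers, compared to 0.122 for a library within its group. The labels do not name the preparation date. No filter was added to that of the authors. Counts per group were solved from the authors' means by non-negative least squares, with a median of the largest misfit of 0.787% over 14476 genes. Promoter windows were from RefSeq. Depth per library is unknown, so no counting interval is given.

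The members and the lists of other hepatocyte genes and of cholangiocyte and progenitor, mesenchymal and epithelial markers were chosen with earlier results of these data known. Members with at least 10 mean normalized counts or a call are described in full, the others by their range, and up to 3 called genes per comparison are named from the other hepatocyte genes. Alternatives were no block, the other table, the tables of pairs, upper-quartile and spike-in scaling, a minimum of 10 counts, pseudocounts of 0 and 10, robust eBayes, and each library left out.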

Additional observations from a re-analysis of the deposited data

Results flagged for a closer look

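For 4 members the Rego effect differed between SNU449 and SNU449-Axl-KO in the limma interaction term with Benjamini-Hochberg adjustment over all genes. For FGB the effect in SNU449 minus that in SNU449-Axl-KO was -2.38 (standard error 0.540, adjusted p = 0.0126), and its libraries rose in SNU449-Axl-KO and were near the lower end of the scale in SNU449. This call was lost with robust eBayes (adjusted p = 0.125) and without replicate 2 of SNU449-Axl-KO-Rego (adjusted p = 0.0537). For RBP4 the term was -1.46 (standard error 0.331, adjusted p = 0.0126, limma), with higher values in the resistant than in the control libraries of both backgrounds and a larger step in SNU449-Axl-KO. The values of RBP4 in SNU449 lay near the lower end of the scale, where differences are compressed, so that the size of the term depends on the scale. For GPC3 it was -1.96 (standard error 0.349, adjusted p = 0.00246, limma). The calls of RBP4 and GPC3 held in each of 20 alternative settings, with adjusted p-values of up to 0.0474 and 0.0123, respectively, in limma. For ONECUT1 the term was 1.09 (standard error 0.282, adjusted p = 0.0270, limma), and the call was lost in 9 of 19 settings, 8 of them with 1 library left out. Each group has 3 libraries, so no single library was tested for standing apart.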

How the results depend on the processing

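Without the replicate block, 2175 genes were called with Rego in SNU449 (1219 with it), 1552 with Rego in SNU449-Axl-KO (678), 2182 between the control cells (1163), 1503 between the resistant cells (682) and 1826 in the interaction (916), and 5 members instead of 2 with Rego in SNU449. In the tables of pairs, 603 genes and 1 member were called with Rego in SNU449, 603 genes between the control cells and 1160 between the resistant cells. Robust eBayes called 1 member with Rego in SNU449, and a minimum of 10 counts, which tests fewer genes, called 1 between the control cells. Centring on the spike-ins shifted the median of all genes by -0.058 with Rego in SNU449, 0.12 with Rego in SNU449-Axl-KO, 0.126 between the control cells, 0.304 between the resistant cells and -0.178 in the interaction. With it, 2326 genes (2242 up, 84 down, compared to 381 and 301) and 12 members were called between the resistant cells. The splits up and down were 441 and 562 (673 and 546 before) with Rego in SNU449, 578 and 133 (396 and 282) with Rego in SNU449-Axl-KO, 941 and 307 (628 and 535) between the control cells and 236 and 671 (461 and 455) in the interaction. The causes were not tested.

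Leaving out 1 library gave 740 to 1299 genes and 2 to 3 members with Rego in SNU449, 205 to 891 and 4 to 7 with Rego in SNU449-Axl-KO, 540 to 1275 and 1 to 5 between the control cells, 219 to 826 and 5 to 8 between the resistant cells, and 523 to 922 and 2 to 6 in the interaction. No called member changed direction in any setting, and 12 of the 23 calls of members held in all of them: CP with Rego in SNU449; FGB, AMBP, RBP4 and GPC3 with Rego in SNU449-Axl-KO; ONECUT1 between the control cells; FGB, FGG, RBP4 and CP between the resistant cells; RBP4 and GPC3 in the interaction. With Rego in SNU449-Axl-KO, FGG was lost without replicate 1 or 2 of SNU449-Axl-KO-ctrl or replicate 2 of SNU449-Axl-KO-Rego, with adjusted p-values of up to 0.156, and SERPINF2 was lost in 4 of these 12 fits (up to 0.120). Between the resistant cells, AMBP was lost without replicate 1 of SNU449-Rego or replicate 2 of SNU449-Axl-KO-Rego (up to 0.104), GPC3 without replicate 3 of SNU449-Axl-KO-Rego (0.0551) and FGA in 6 settings (up to 0.240). Between the control cells, FGG was lost without replicate 2 of either group or replicate 3 of SNU449-Axl-KO-ctrl (up to 0.128).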
